A study of Homo sapiens with 8 samples.

Results

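The interferon-stimulated genes examined here were 42 genes fixed by symbol, out of 15041 genes listed in at least 1 of 8 count tables. They were read from every table, and a gene that a table did not list was taken as 0. The tables listed between 36 and 41 of the 42. The filter on low counts was passed by 40 of them, all but the ISG15 protease USP18 and the nucleotide kinase CMPK2. The libraries came from single MDA-MB-231 cells, a human triple-negative breast cancer line, picked by mouth pipette, with Smart-seq2 amplification in a modified form and sequencing of 3′ ends. The 4 groups, of 2 libraries each, were untreated wild type (WT), WT given 5 Gy of ionizing radiation and kept in culture for 4 h, untreated ATM knockdown (KD), and KD given that dose and time. ATM is a kinase activated by DNA double-strand breaks, and the question addressed is how transcript levels differ with irradiation and with loss of ATM. How the knockdown was made, and whether a line is 1 clone, is not given in the sources used here.

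Type I interferons bind a receptor whose kinases JAK1 and TYK2 activate transcription factors, among them STAT2, which joins IRF9 in a complex that binds a promoter element called the ISRE. Interferon gamma acts largely through a separate element called GAS. The genes so induced encode sensors of foreign nucleic acid, proteins that block viral RNA or its translation, the ubiquitin-like modifier ISG15 with its ligases, and proteins that restrict viruses at membranes. Low levels of many of them are held up without infection by tonic signalling. Tumour cells with damaged DNA can induce them through cytosolic nucleic acid sensors such as cGAS and STING.

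Promoter sequences are shown for members that were lower in KD, to show the element that most of them hold. RefSeq promoters (GRCh38.p14, from 250 bases before to 50 after the start) were matched for 34 of the 42 members. The ISRE was searched as GAAA, any 2 bases and GAAA, on both strands, where overlapping matches can occur. It was found in 22 of the 34 members (64.7%) and in 3.57% of all 35116 promoters in the table. GAS was searched as TTCNNNGAA, which reads the same on both strands, and was found in 9 of the 34 (26.5%) and in 7.66% of all promoters. Among the 16 members with a promoter that were lower in KD over both treatments, 13 held an ISRE match, all but OAS1, IRF1 and DDX58. Of the 18 others with a promoter, 9 held one. The windows of OAS1 and DDX58 hold GAAA and GAAA with 1 base between, a form this search did not count. Those of IFI35, RSAD2 and XAF1 among the others hold it too. A match is a description of letters in these windows. The stretches below run 5′ to 3′ on the strand of the gene, from 200 bases before the RefSeq start to the base before that start, or before any GENCODE 29 exon of the gene that reaches into this stretch. The ISG15 stretch lies within the annotated span of its gene but outside its exons. Capitals mark ISRE matches, and in IRF1 the GAS match. They were chosen after the values were seen.
IFIT1: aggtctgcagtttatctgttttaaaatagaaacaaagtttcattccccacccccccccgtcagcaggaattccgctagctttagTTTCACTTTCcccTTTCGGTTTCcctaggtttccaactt
IFIT3: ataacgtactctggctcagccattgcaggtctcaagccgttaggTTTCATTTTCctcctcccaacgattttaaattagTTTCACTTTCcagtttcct
ISG15: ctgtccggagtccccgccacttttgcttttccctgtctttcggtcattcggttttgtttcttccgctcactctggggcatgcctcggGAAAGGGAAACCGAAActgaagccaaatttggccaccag
HERC5: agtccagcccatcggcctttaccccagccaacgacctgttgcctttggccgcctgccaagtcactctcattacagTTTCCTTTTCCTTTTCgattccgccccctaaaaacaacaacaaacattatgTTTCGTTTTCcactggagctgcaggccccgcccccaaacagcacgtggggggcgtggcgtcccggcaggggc
IFI44: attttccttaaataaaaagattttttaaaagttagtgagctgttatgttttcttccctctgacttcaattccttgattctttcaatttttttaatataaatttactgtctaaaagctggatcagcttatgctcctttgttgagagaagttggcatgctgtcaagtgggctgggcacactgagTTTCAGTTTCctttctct
IFI6: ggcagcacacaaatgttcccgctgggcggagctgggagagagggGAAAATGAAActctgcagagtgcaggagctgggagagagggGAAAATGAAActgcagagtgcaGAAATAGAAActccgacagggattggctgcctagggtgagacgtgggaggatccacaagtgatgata
BST2: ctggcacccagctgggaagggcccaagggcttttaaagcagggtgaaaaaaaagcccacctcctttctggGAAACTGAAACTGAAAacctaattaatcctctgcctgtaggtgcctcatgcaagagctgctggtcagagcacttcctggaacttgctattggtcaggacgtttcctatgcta
SAMD9: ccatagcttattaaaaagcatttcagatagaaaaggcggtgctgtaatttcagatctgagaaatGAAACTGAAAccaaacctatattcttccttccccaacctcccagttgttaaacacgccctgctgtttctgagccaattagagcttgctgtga
IRF1: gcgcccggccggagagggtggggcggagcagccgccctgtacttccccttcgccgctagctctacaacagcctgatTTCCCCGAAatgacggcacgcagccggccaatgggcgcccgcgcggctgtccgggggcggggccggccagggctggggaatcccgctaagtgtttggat
The stretch of IFIT1 lies at chr10:89392423-89392545, plus strand, and that of IFIT3 on the same chromosome at chr10:89327797-89327893, plus strand. Those of ISG15 (chr1:1013297-1013422, plus strand), IFI44 (chr1:78649589-78649788, plus strand) and IFI6 (chr1:27672219-27672392, minus strand) lie on chromosome 1. HERC5 lies at chr4:88456919-88457116, plus strand, BST2 at chr19:17405649-17405830, minus strand, SAMD9 at chr7:93118024-93118179, minus strand and IRF1 at chr5:132490799-132490973, minus strand. The 2 capital runs of IFIT1 stand 3 bases apart, and the 2 matches of ISG15 and of BST2 overlap into a single run. IRF1, which is induced through GAS, had no ISRE match in its window.

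The 363 cells kept of 378 gave 9321268 to 24256471 counts per library. The 15 cells left out were all from KD. Levels are counts scaled to a library total of 1000000 (CPM). A pair of values is replicates 1 and 2, which are numbered in accession order, and untreated precedes irradiated. Nothing in the labels ties the replicates to separate cultures, so a p-value here reflects only how the deposited libraries spread, possibly a technical spread. Every WT title ends in one suffix and every KD title in another, so handling and genotype cannot be told apart. ATM itself stood at 28.0 to 57.9 CPM in WT and at 13.0 to 33.0 CPM in KD, and untreated KD replicate 2 was at the WT level. Leukocyte markers summed to 457 to 714 CPM, and CD74 alone was at 434 to 614 CPM. Without CD14 and CD74 the sum was 1.37 to 10.9 CPM, and PTPRC was at 0 in 5 of the 8 libraries. Breast line markers summed to 9422 to 12807 CPM. CD14 was at 40.9 to 105 CPM in WT and 10.2 to 17.9 CPM in KD, a difference that moved with that of the members, and its part in them was not tested. Markers of the line and of luminal cells also differed over both treatments: KRT7, S100A4, KRT18, AXL and MUC1 were lower in KD, and CD44, VIM and EPCAM were higher.

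Members were lower in KD. Over both treatments 19 of the 40 tested were lower in KD and none was higher (edgeR quasi-likelihood test, Benjamini-Hochberg adjusted p below 0.05). Of all 12456 genes tested, 16.2% were called, 8.49% lower and 7.67% higher. The members were chosen with earlier results of these data known, so an excess over all genes is not independent of that choice. The median log2 difference of the 40 was -0.96, and that of all genes was -0.01. Their share of all counts was 0.250% to 0.465% in the 4 WT libraries and 0.200% to 0.219% in the 4 KD libraries, without overlap. Without irradiation 11 were lower in KD and none was higher, with a median of -0.74, and 9.94% of all genes were called, 5.11% lower and 4.83% higher. After irradiation 9 were lower and 1, IFI27, was higher, with a median of -1.08, and 5.1% of all genes were called, 2.92% lower and 2.18% higher. These contrasts over treatments share their libraries. In summed counts all 4 KD libraries lay below all 4 WT libraries for 11 of the 40, a pattern held by 7.27% of all genes, and the reverse held for none, against 10.3% of all genes. Fewer cells with a gene and less RNA per cell cannot be told apart in such sums, and both are given further on.

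**Figure D1:**
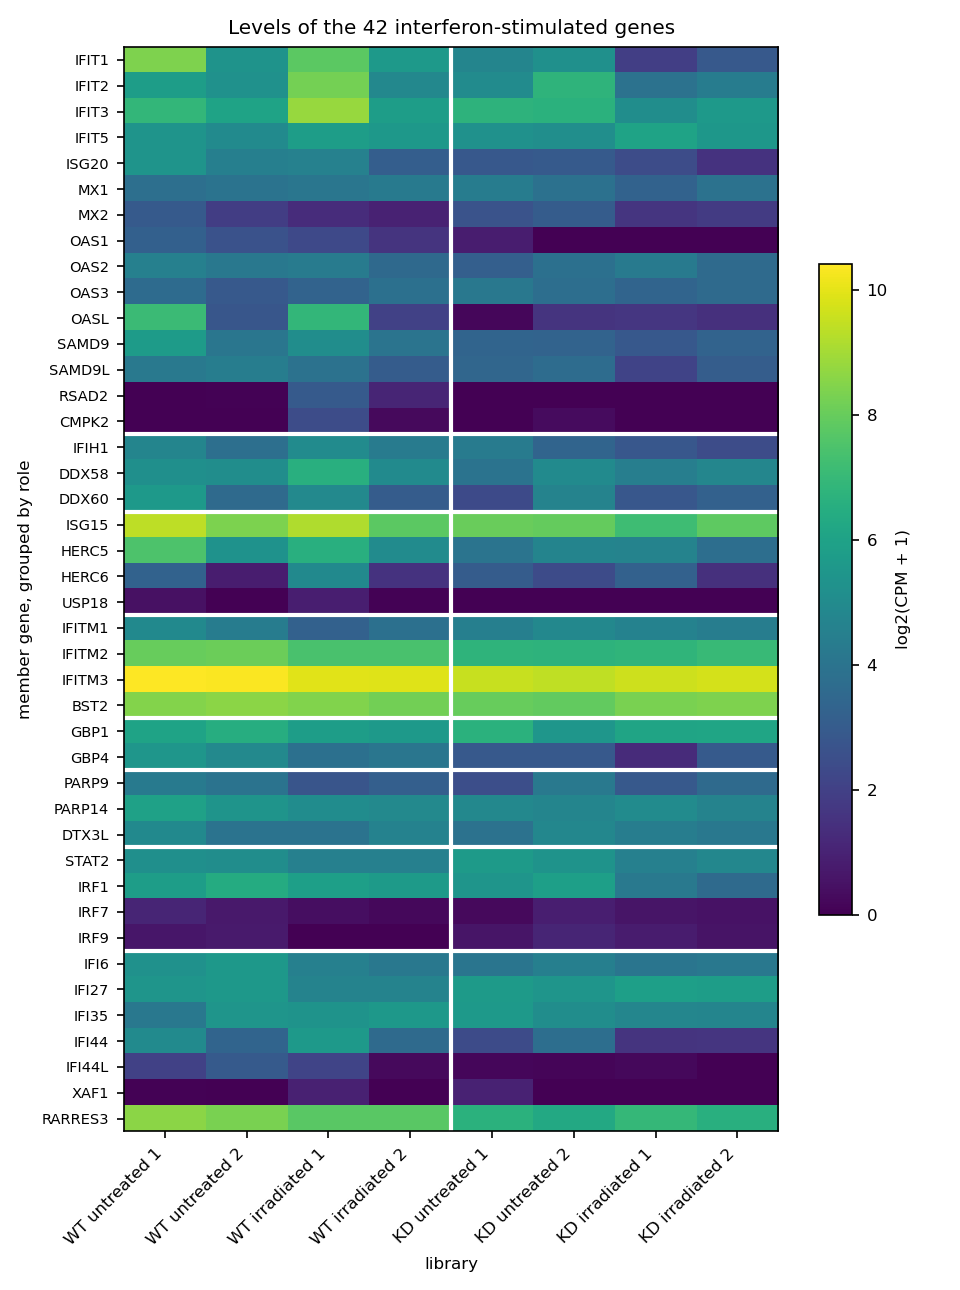
Levels of the 42 members, as log2(CPM + 1) by colour, with members in rows grouped by role and the 8 libraries in columns. IFIT1, OASL and HERC5 are brightest in replicates 1 of both WT groups, while IFITM2, IFITM3 and RARRES3 are brighter in all 4 WT libraries than in the KD libraries.

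Of 4 membrane proteins tested, 3 were lower in KD over both treatments and none was higher. IFITM2 and IFITM3, which block the fusion of viruses with endosomes, and BST2, which tethers virions to the cell surface, were lower in untreated KD. IFITM3 (ENSG00000142089.15, chromosome 11, 319669 to 327537, GRCh38) was at 1361 and 1318, then 969.9 and 943 CPM in WT, and 749.6 and 673, then 781 and 858 CPM in KD. All 4 WT libraries lay above all 4 KD libraries, and the difference was -0.97 (SE 0.123, adjusted p = 0.000173) without irradiation. IFITM2 was at 254 and 266, then 173 and 169 CPM in WT, and 108 and 104, then 113 and 128 CPM in KD, with -1.35 (SE 0.171, adjusted p = 0.000178) without irradiation. BST2 was at 359 and 385, then 347 and 292 CPM in WT, and 252 and 237, then 317 and 332 CPM in KD. Its untreated KD libraries were lower, at -0.66 (SE 0.153, adjusted p = 0.013), and its irradiated KD libraries lay within the range of the irradiated WT pair. Without untreated KD replicate 2 that adjusted p was 0.0734. Over both treatments BST2 was at -0.35 (SE 0.108, adjusted p = 0.0365), and that call was lost without untreated WT replicate 2 (0.0768), irradiated WT replicate 1 (0.154), untreated KD replicate 2 (0.0978) or either irradiated KD library (0.137 and 0.0758). IFITM1 was at 29.6 and 19.98, then 8.37 and 13.5 CPM in WT, and 21.4 and 27.8, then 23.2 and 20.6 CPM in KD, and its lowest values were in irradiated WT. It passed in no comparison. After irradiation none of these 4 passed between genotypes. IFITM1 and IFITM2 are neighbours whose annotated exons overlap over 32.5% and 22.7% of their bases, and 21.3% of the exonic bases of IFITM3 overlap a long noncoding gene, so their counts could be split or shared.

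RARRES3 (ENSG00000133321.10, chromosome 11, 63536809 to 63546462) had the smallest p of all members over both treatments. It encodes a phospholipase and acyltransferase induced by retinoic acid and interferon. It was at 389.7 and 320.0, then 217 and 217 CPM in WT, and 98.8 and 77.7, then 121 and 94.7 CPM in KD. The WT and KD libraries did not overlap. The difference was -2.06 (SE 0.193, adjusted p = 1.3e-05) without irradiation and -1.08 (SE 0.188, adjusted p = 0.00368) after it.

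**Figure D2:**
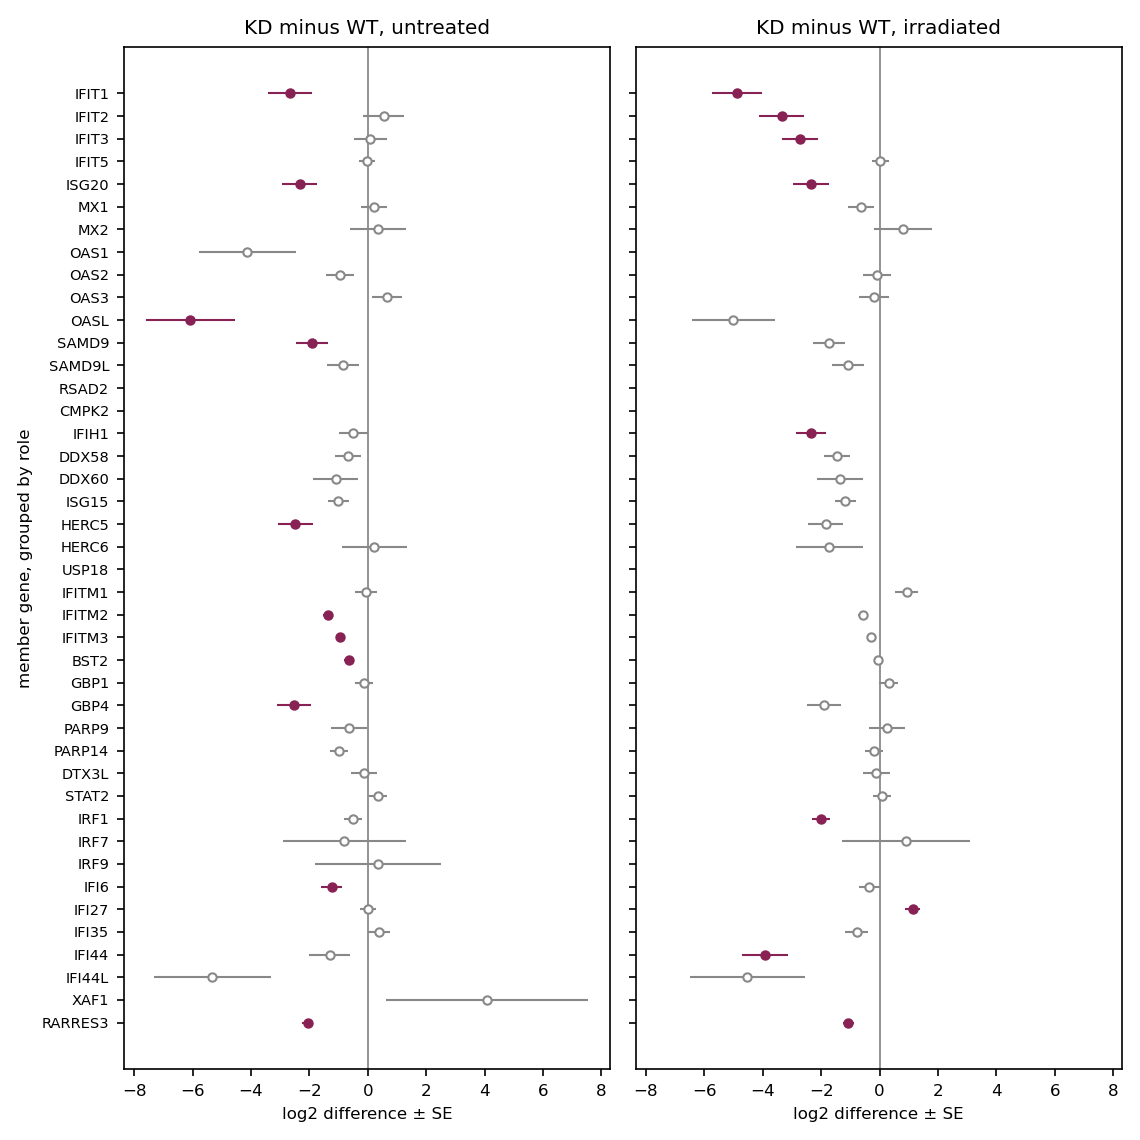
Log2 difference of KD minus WT with its SE for each member tested, untreated on the left and irradiated on the right. Filled points passed the adjusted threshold of 0.05, and a member with no point failed the filter or had a group at 0, as OAS1 did in irradiated KD. Most filled points lie left of 0, and IFI27 on the right panel is the exception.

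Among proteins that act on viral RNA and nucleotides, 6 of 14 tested were lower in KD over both treatments and none was higher. IFIT1, which binds viral RNA lacking the host's cap methylation, led this group. IFIT1 (ENSG00000185745.9, chromosome 10, 89392546 to 89406486) was at 339.8 and 40.2, then 218 and 47.9 CPM in WT, and 25.6 and 36.5, then 2.78 and 6.60 CPM in KD. Replicates 1 of both WT groups stood far above replicates 2, and irradiated KD was the lowest pair. The difference of IFIT1 was -2.66 (SE 0.751, adjusted p = 0.0354) without irradiation and -4.89 (SE 0.852, adjusted p = 0.00368) after it. The first of these had an adjusted p of 0.666 without untreated WT replicate 1 and 0.0542 without untreated KD replicate 1. Its partners IFIT2 and IFIT3 were lower in irradiated KD, and IFIT3 also over both treatments. IFIT2 was at 54.3 and 37.00, then 303 and 27.95 CPM in WT, and 31.1 and 108, then 14.1 and 19.9 CPM in KD, and IFIT3 was at 119 and 64.5, then 451 and 54.4 CPM in WT, and 104 and 98.4, then 33.5 and 47.6 CPM in KD. A single high library, irradiated WT replicate 1, stood out in each, and the other irradiated WT library lay within the range of the 4 KD libraries. The irradiated difference was -3.36 (SE 0.767, adjusted p = 0.0195) for IFIT2 and -2.71 (SE 0.616, adjusted p = 0.0187) for IFIT3, and without that library the adjusted p was 0.521 and 0.587. Over both treatments IFIT3 was at -1.31 (SE 0.416, adjusted p = 0.0427), and without that library the adjusted p was 0.654. IFIT5, which binds triphosphate ends of RNA, was at 40.4 and 30.6, then 54.9 and 46.3 CPM in WT, and 37.9 and 34.1, then 64.4 and 44.2 CPM in KD, and its groups overlapped.

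The oligoadenylate synthetases OAS1, OAS2 and OAS3 make the messenger that activates RNase L, and OASL lacks that activity and aids RIG-I. OASL (ENSG00000135114.12, chromosome 12, 121019111 to 121039242) was at 137 and 5.86, then 117 and 3.05 CPM in WT, and 0.131 and 1.98, then 2.17 and 1.75 CPM in KD. The 2 high values belong to replicates 1 of WT, and both other WT libraries still lay above every KD library. Its difference over both treatments was -5.54 (SE 1.04, adjusted p = 0.00195), and without irradiation -6.08 (SE 1.52, adjusted p = 0.0194), with 0.119 as the adjusted p of the latter when untreated WT replicate 1 was left out. OAS1 was at 8.12 and 5.21, then 3.86 and 1.98 CPM in WT, and 0.785 and 0, then 0 and 0 CPM in KD. It was at 0 in 3 KD libraries. The irradiated WT libraries held 36 and 39 counts of OAS1, and 4.17% to 22.9% of cells of a WT library had a count. With a floor of 3 counts per library OAS1 was at least 19.1-fold lower in irradiated KD than in irradiated WT (adjusted p = 0.0456). Without irradiated WT replicate 1 the adjusted p was 0.082, and without irradiated KD replicate 1 or 2 it was 0.155. OAS2 was at 22.3 and 17.02, then 18.9 and 10.8 CPM in WT, and 7.78 and 13.2, then 17.97 and 11.2 CPM in KD, and OAS3 was at 11.5 and 6.51, then 9.01 and 13.3 CPM in WT, and 16.8 and 12.5, then 9.34 and 11.2 CPM in KD. Neither passed, and their groups overlapped.

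ISG20, an exonuclease that degrades RNA, was at 41.4 and 21.6, then 22.5 and 7.67 CPM in WT, and 6.21 and 6.74, then 4.34 and 1.86 CPM in KD, with all KD libraries below all WT libraries. Its difference was -2.33 (SE 0.597, adjusted p = 0.0217) without irradiation and -2.35 (SE 0.607, adjusted p = 0.0361) after it. Leaving out untreated WT replicate 1 gave the first an adjusted p of 0.113, and leaving out irradiated WT replicate 1 gave the second 0.329, and leaving out irradiated KD replicate 2 gave it 0.205. SAMD9, which represses translation in infected cells, was at 50.9 and 16.2, then 33.4 and 14.99 CPM in WT, and 9.35 and 9.06, then 6.31 and 8.92 CPM in KD, and was lower in KD at -1.91 (SE 0.539, adjusted p = 0.0348) without irradiation. That adjusted p was 0.413 without untreated WT replicate 1, and 0.0606 and 0.0713 without untreated KD replicate 1 or 2. Its neighbour SAMD9L was at 17.6 and 20.03, then 14.2 and 7.27 CPM in WT, and 9.88 and 11.9, then 3.23 and 7.32 CPM in KD and passed in no comparison. MX1, a GTPase that traps viral nucleocapsids, was at 13.03 and 14.6, then 16.1 and 18.04 CPM in WT, and 19.8 and 13.8, then 8.73 and 14.3 CPM in KD, with overlapping groups. MX2 ranged from 1.02 to 7.25 CPM. RSAD2, which makes a chain-terminating nucleotide, was at 0 in 5 libraries and reached 6.65 CPM in irradiated WT replicate 1, and CMPK2 was at 4.40 CPM or less.

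RNA sensors were lower in KD in 2 of 3 members over both treatments. IFIH1 (MDA5), which senses long double-stranded RNA, was at 25.4 and 13.1, then 31.4 and 18.9 CPM in WT, and 18.9 and 9.23, then 6.11 and 4.33 CPM in KD. The irradiated KD pair was the lowest, and the difference there was -2.34 (SE 0.521, adjusted p = 0.0172). It had an adjusted p of 0.101 without irradiated WT replicate 1 and 0.102 without irradiated KD replicate 2, and over both treatments IFIH1 had 0.0504 without irradiated WT replicate 1. DDX58 (RIG-I), which senses RNA with triphosphate ends, was at 35.2 and 33.6, then 92.6 and 30.2 CPM in WT, and 14.6 and 30.4, then 20.9 and 26.1 CPM in KD. Its highest library was irradiated WT replicate 1, and it passed only over both treatments, at -1.06 (SE 0.320, adjusted p = 0.0339), with an adjusted p of 0.27 without that library, and of 0.0591 and 0.0636 without untreated or irradiated KD replicate 1. The helicase DDX60 ranged from 4.12 to 47.7 CPM and passed in no comparison.

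Of the ISG15 system, ISG15 and its main ligase HERC5 were lower in KD over both treatments. ISG15 (ENSG00000187608.8, chromosome 1, 1001138 to 1014540) was at 656 and 325, then 579 and 221 CPM in WT, and 259 and 245, then 145 and 226 CPM in KD. Replicates 1 of WT were the highest, and irradiated WT replicate 2 lay within the KD range. The difference over both treatments was -1.09 (SE 0.257, adjusted p = 0.00873). Without cells above 2 times the median depth of their library it was -0.44 (adjusted p = 0.161), and the adjusted p was 0.0541 by DESeq2 and 0.0521 by limma. HERC5 was at 178 and 39.1, then 94.7 and 31.3 CPM in WT, and 15.1 and 25.1, then 24.6 and 12.4 CPM in KD, without overlap between genotypes. The difference of HERC5 was -2.48 (SE 0.603, adjusted p = 0.0167) without irradiation, with an adjusted p of 0.201 when untreated WT replicate 1 was left out. HERC6 was at 8.62 and 0.801, then 29.7 and 1.88 CPM in WT, and 7.13 and 4.25, then 8.43 and 1.70 CPM in KD, with no order between genotypes. USP18, which removes ISG15, had at most 9 counts in a WT library and was at 0 in every KD library.

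The guanylate-binding GTPases differed between themselves. GBP4 was at 43.2 and 29.04, then 13.4 and 15.96 CPM in WT, and 6.48 and 6.51, then 1.46 and 6.76 CPM in KD, without overlap between genotypes, and was lower in KD over both treatments at -2.21 (SE 0.413, adjusted p = 0.00188). GBP1 was at 65.01 and 87.6, then 54.6 and 48.6 CPM in WT, and 100.1 and 43.9, then 65.96 and 68.5 CPM in KD, with overlapping groups and no call. Of the ADP-ribosylation genes none passed. PARP14, which modifies proteins of interferon signalling, was at 61.9 and 41.5, then 32.4 and 28.6 CPM in WT, and 28.3 and 25.4, then 31.3 and 24.5 CPM in KD, highest in the untreated WT pair. PARP9 and its partner DTX3L ranged from 4.64 to 18.1 CPM and from 13.999 to 29.3 CPM.

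Of the 4 transcription factors, IRF1 alone passed between genotypes. STAT2 was at 34.9 and 33.8, then 21.99 and 22.3 CPM in WT, and 50.2 and 40.1, then 22.1 and 27.2 CPM in KD. The untreated KD libraries were the highest, and STAT2 passed in no comparison. IRF9 had 0 counts in both irradiated WT libraries and 8 to 20 counts in the other 6, and 48.4% of its exonic bases overlap another coding gene. With a floor of 3 counts per library it was at least 2.61-fold lower in irradiated than in untreated WT (adjusted p = 0.385). IRF9 stood at 0.536 and 0.701, then 0 and 0 CPM in WT, and 0.523 and 1.13, then 0.757 and 0.464 CPM in KD. IRF7, the factor that amplifies interferon production, was at 1.11 and 0.651, then 0.322 and 0.152 CPM in WT, and 0.196 and 0.849, then 0.505 and 0.413 CPM in KD, with 3 to 27 counts per library.

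IRF1 was the only member called lower after irradiation in KD, where 0.225% of all genes were called, 0.193% lower and 0.0321% higher. IRF1 (ENSG00000125347.13, chromosome 5, 132481609 to 132490798) is an early factor of the interferon gamma response. It was at 54.5 and 84.3, then 57.5 and 50.4 CPM in WT, and 42.5 and 58.4, then 17.3 and 11.03 CPM in KD. The irradiated KD pair was the lowest. In KD it went from 50.5 ± 11.3 CPM to 14.1 ± 4.40 CPM (n = 2 and 2), a difference of -1.83 (SE 0.318, adjusted p = 0.0184), with an adjusted p of 0.117 without irradiated KD replicate 2. In WT the difference was -0.34 (SE 0.306, adjusted p = 0.677). The difference between these responses was -1.48 (SE 0.437, adjusted p = 0.27) and did not pass. Between irradiated genotypes IRF1 was lower in KD at -2.003 (SE 0.320, adjusted p = 0.00214). Exons of IRF1 overlap those of another gene over 22% of their bases, and strand use in counting is not given in the sources used here.

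Members with other or less defined roles split. IFI44 was at 30.96 and 9.36, then 47.4 and 11.1 CPM in WT, and 4.19 and 12.7, then 1.97 and 2.06 CPM in KD, with an irradiated difference of -3.93 (SE 0.780, adjusted p = 0.00871) and an adjusted p of 0.0798 without irradiated WT replicate 1. Its neighbour IFI44L was at 3.09 and 6.81, then 3.43 and 0.203 CPM in WT, and 0.131 and 0.113, then 0.151 and 0 CPM in KD. All KD libraries of IFI44L held at most 3 counts, and it was lower over both treatments at -4.93 (SE 1.41, adjusted p = 0.0263). Leaving out irradiated WT replicate 1 gave IFI44L an adjusted p of 0.173, and leaving out untreated WT replicate 2, untreated KD replicate 2 or irradiated KD replicate 2 gave 0.113, 0.0529 and 0.0867. IFI6, a membrane protein of the endoplasmic reticulum and mitochondria, was at 37.4 and 46.1, then 22.4 and 17.2 CPM in WT, and 15.3 and 21.6, then 15.3 and 17.2 CPM in KD. Only the untreated WT pair was high, and the untreated difference was -1.24 (SE 0.355, adjusted p = 0.0377). Its adjusted p was 0.175 without untreated WT replicate 2 and 0.186 without untreated KD replicate 1. Over both treatments IFI6 was at -0.79 (SE 0.250, adjusted p = 0.0415), and that call was lost without either of these libraries (0.12 and 0.11), irradiated WT replicate 1 (0.138) or either irradiated KD library (0.138 and 0.0852). IFI27, a mitochondrial protein, was at 41.6 and 45.8, then 24.2 and 24.3 CPM in WT, and 50.3 and 41.5, then 57.4 and 54.3 CPM in KD. Its irradiated WT pair was the lowest of the 4 pairs, and IFI27 was the 1 member higher in irradiated KD, at 1.13 (SE 0.270, adjusted p = 0.0244). That call was lost when any 1 of the 4 irradiated libraries was left out (adjusted p from 0.102 to 0.133). IFI35 ranged from 16.8 to 47.4 CPM and XAF1 from 0 to 0.981 CPM.

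**Figure D3:**
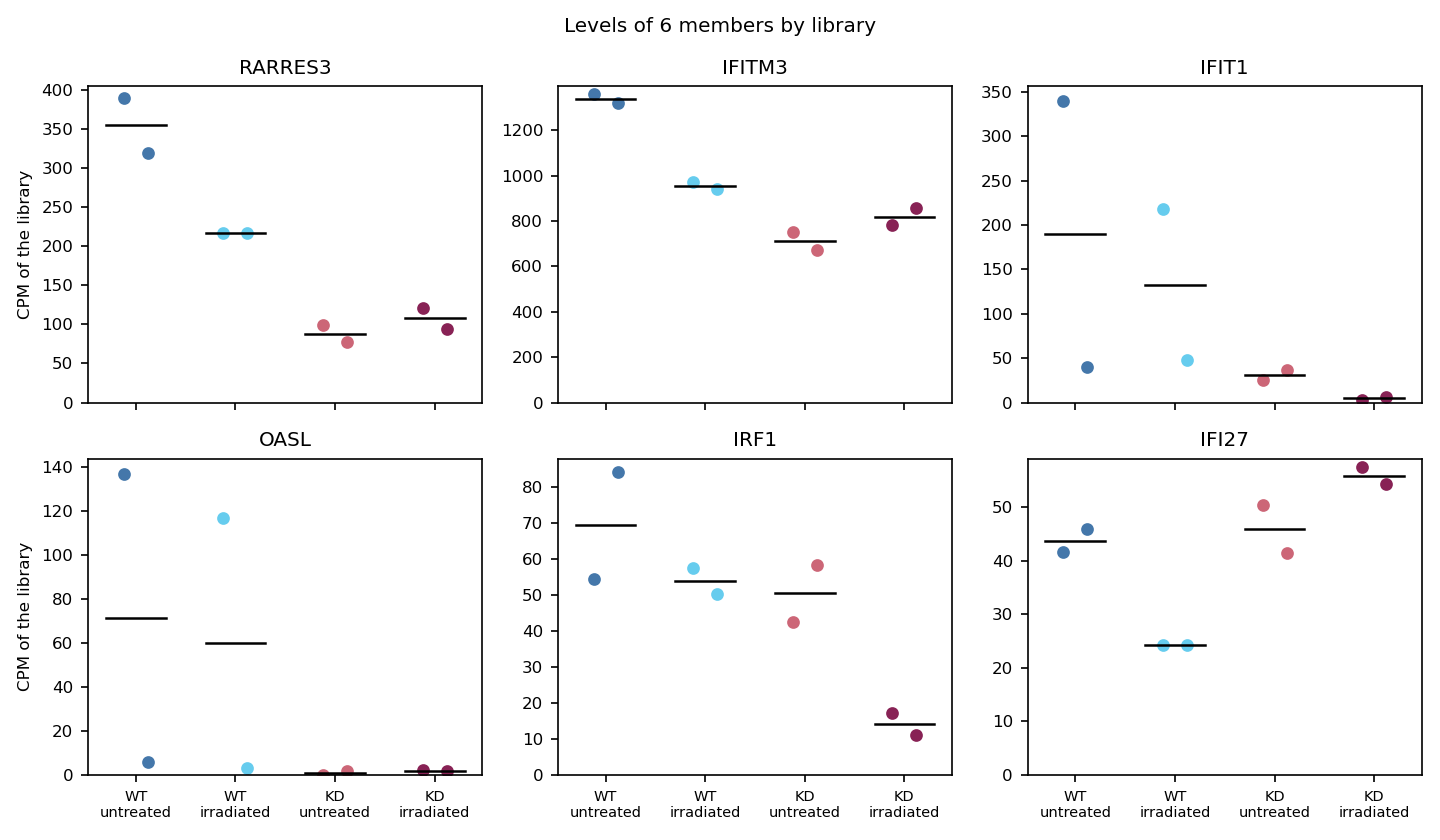
CPM of 6 members in each library (points) with the mean of the pair (line), on axes that start at 0. RARRES3 and IFITM3 have higher values in every WT library than in any KD library, IFIT1 and OASL each have 1 high library in both WT groups, IRF1 is lowest in irradiated KD, and IFI27 is lowest in irradiated WT.

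Irradiation of WT called no member, with 1.65% of all genes called, 0.739% lower and 0.907% higher. At an unadjusted p below 0.05 there were 11 members. The share of all genes at that threshold is not given here, so no excess can be read from this count. DESeq2's Wald test called 3 members, with 4.57% of all genes. The smallest p belonged to IFITM3, which went from 1339.6 ± 29.9 CPM to 957 ± 18.97 CPM (n = 2 and 2), -0.46 (SE 0.122, adjusted p = 0.0739). RARRES3 had -0.69 (SE 0.187, adjusted p = 0.0838) and IFITM2 had -0.58 (SE 0.169, adjusted p = 0.103), and in each the irradiated pair lay below the untreated pair. IFITM1, IFI6, IFI27, BST2, STAT2, PARP14, PARP9, GBP1, GBP4, SAMD9L, OAS1, MX2, IRF7 and IRF9 had the same order of pairs. The reverse order held for IFIT5, MX1, RSAD2 and CMPK2. The share of all genes with either order was not computed, so neither list is read as an effect of irradiation. IFIT2 and IFIT3 had positive log2 differences, 1.89 and 1.49, with irradiated WT replicate 1 as the 1 high library. The median of the 40 was -0.47 and that of all genes -0.01. In KD the median was -0.37, or -0.43 with members at 0 set to their bound, and IRF1 was the 1 call. Other members with a small p in KD were IFIT1, at -2.72 (SE 0.793, adjusted p = 0.249), and STAT2, at -0.87 (SE 0.306, adjusted p = 0.399).

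The irradiation response differed between genotypes in no member by edgeR, where 0.185% of all genes were called, 0.104% higher and 0.0803% lower. DESeq2's Wald test called 2 members, with 1.08% of all genes. By edgeR 11 had an unadjusted p below 0.05, and the share of all genes at that threshold is not given here. IFITM3 had the smallest p there, 0.68 (SE 0.172, adjusted p = 0.187), followed by IFIT2, at -3.90 (SE 1.02, adjusted p = 0.212), and RARRES3, at 0.98 (SE 0.264, adjusted p = 0.221). IFITM3 and RARRES3 were lower in irradiated than in untreated WT and higher in irradiated than in untreated KD in mean. Averaged over genotypes, irradiation called IRF1 alone, at -1.09 (SE 0.220, adjusted p = 0.0223), with 1.49% of all genes called, 0.851% lower and 0.642% higher. Without irradiated WT replicate 2 its adjusted p was 0.0502. The next members were STAT2, at -0.74 (SE 0.217, adjusted p = 0.11), IFIT1, at -1.60 (SE 0.528, adjusted p = 0.156), and IFIT5, at 0.56 (SE 0.202, adjusted p = 0.195).

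Part of the signal in summed counts came from few cells. In the 4 members IFITM2, IFITM3, BST2 and RARRES3, 1 cell held at most 12.2% to 21.4% of the counts of a library. IFITM3 was counted in 97.6% to 100% of cells of every library. These 4 were set apart as steady across cells, so their evenness follows from that choice. In the 38 other members the spread was wide in most. In IFI27, IFIT5 and PARP14 among them, 1 cell held at most 18.3%, 20.7% and 21.9%. Summed over those 38, the median cell had 803 to 1259 CPM in the WT libraries and 668 to 844 CPM in the KD libraries. The summed level passed 10000 CPM, a bound set after the values were seen, in 5 of 363 cells, and the next cell had 8181 CPM, in untreated KD replicate 1. Of the 5 cells, 3 were in untreated WT replicate 1 and 2 in irradiated WT replicate 1.

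**Figure D4:**
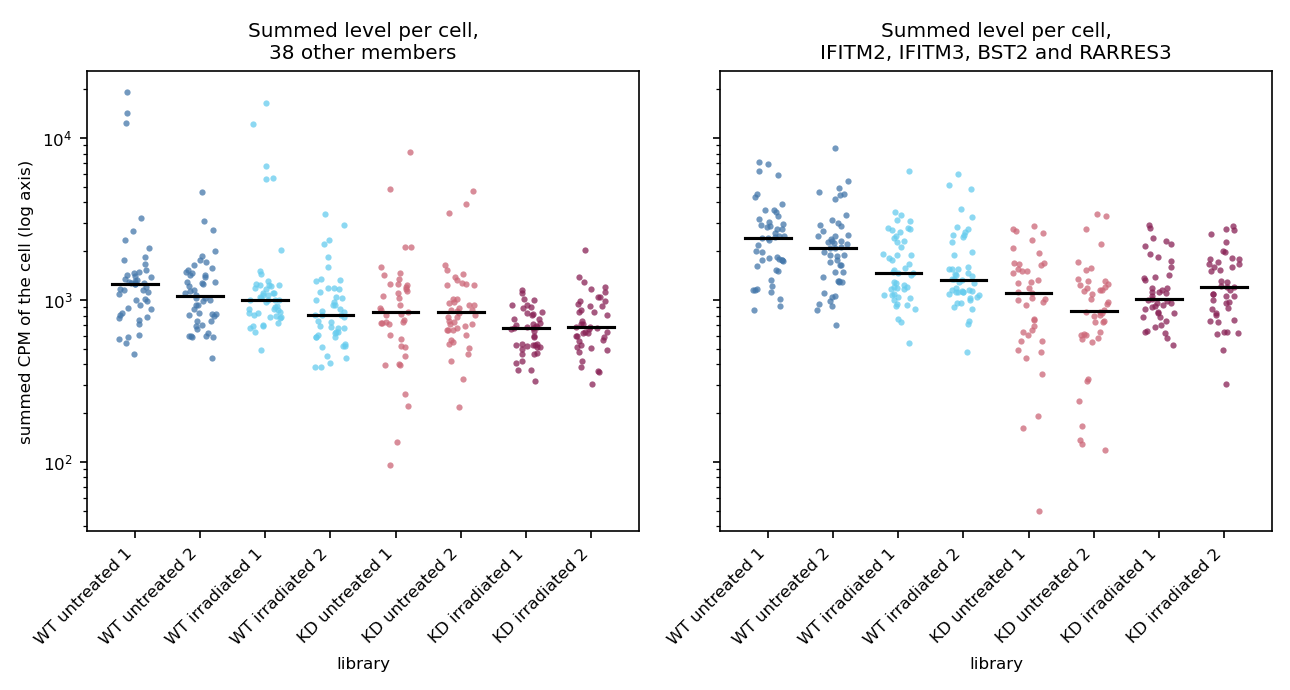
Summed CPM in each cell (points, log axis) by library, with the median (line), for the 38 other members on the left and for IFITM2, IFITM3, BST2 and RARRES3 on the right. On the left 5 cells of 2 WT libraries lie above 10000 CPM and the medians differ less, and on the right the cells of each library form 1 band, with 1 cell at 0 drawn near the foot of the axis.

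These cells differed among themselves in the leading gene. The highest, in untreated WT replicate 1, had 1201266 counts, 4.95% of its library, and held 23.0% of the library's member counts. In it ISG15 was at 5515 CPM, IFIT1 at 4806 CPM, OASL at 2488 CPM and HERC5 at 2121 CPM, and IFIT2 at 143 CPM. In the other cells of that library ISG15 led at 7542 CPM in one, and HERC5 at 3488 CPM in the other. In irradiated WT replicate 1 the higher cell had IFIT3 at 4301 CPM, ISG15 at 3946 CPM and DDX58 at 894 CPM, and the other had IFIT2 at 3664 CPM and IFIT1 at 1996 CPM. At 69000 counts per cell the 5 cells had counts of 26 to 32 members, against a median of 19.0 and 18.0 in their libraries. IRF1 ranged from 6.55 to 82.6 CPM in these cells, and MX1 from 3.06 to 134 CPM. IFITM3 was at 606 to 1413 CPM in them, with 943 to 1361 CPM in the WT libraries as a whole.

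Of the members with at least 100 counts in untreated WT replicate 1, 10 of 35 had over 50% of their counts in 1 cell, and that cell was the highest cell for all 10. These shares were 89.9% for OASL, 82.3% for HERC6, 70.0% for IFIT1, 65.0% for IFI44, 60.8% for IFIH1 and 59.9% for OAS1. They were 59.0% for HERC5, 57.8% for OAS2, 56.9% for ISG20 and 54.3% for OAS3. Among all genes with as many counts, 3.27% had such a cell in that library. In untreated WT replicate 2 it was 4 of 34, against 2.69% of all genes, and in irradiated WT replicate 1 it was 3 of 30 (IFIT3, DDX58 and IFIH1) against 0.401% of all genes. No member did so in irradiated WT replicate 2, out of 31, against 1.13% of all genes. In KD it was 2 of 27 and 3 of 32 without irradiation, against 2.81% and 3.16%, and 1 of 27 and 1 of 28 after it, against 1.06% and 1.51%. The 3 in untreated KD replicate 2 were IFIT2 (54.1%), IFIT3 (54.2%) and IFI44 (57.8%), in the same cell of 754151 counts. The other shares were OAS1, OAS3, OASL and GBP1 in untreated WT replicate 2, HERC6 and SAMD9 in untreated KD replicate 1, HERC6 in irradiated KD replicate 1 and SAMD9L in irradiated KD replicate 2.

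**Figure D5:**
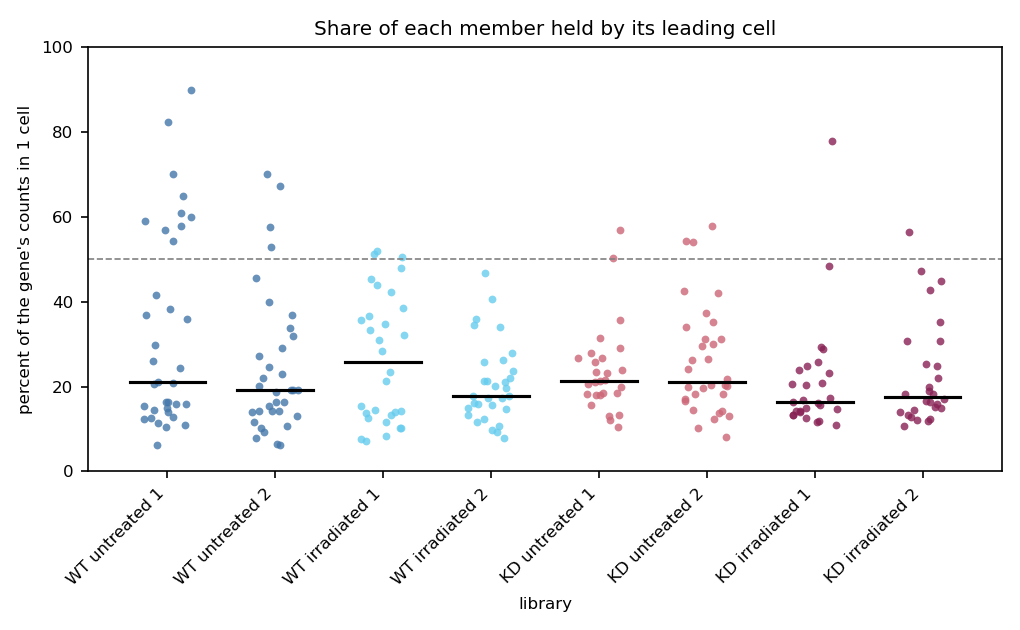
Percent of the counts of each member held by its leading cell, for members with at least 100 counts in the library (points), with the median (line) and 50% dashed. Untreated WT replicate 1 has 10 of 35 points above 50% and irradiated WT replicate 2 has none.

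The high cells bear on the order of the WT replicates, whose numbers follow accession order and do not link untreated to irradiated libraries. Replicates 1 of both WT groups lay above replicates 2 of both in 15 of 40 members, against 14.2% of all genes, among them IFIT1 to IFIT3, ISG15, HERC5 and OASL. Without the 5 cells this held for 7 members, against 13.7% of all genes. The 5 cells were picked for a high summed level and all lie in replicates 1 of WT, so a fall follows from the choice. The share of counts on the tested members went from 0.465% to 0.349% in untreated WT replicate 1, with 0.347% in replicate 2. In irradiated WT replicate 1 it went from 0.418% to 0.298%, with 0.250% in replicate 2. ISG15 in untreated WT replicate 1 went from 656 to 328 CPM, with 325 CPM in replicate 2, and HERC5 from 178 to 23.8 CPM, with 39.1 CPM in replicate 2. OASL went from 137 to 3.90 CPM. IFIT1 went from 339.8 to 82.4 CPM, and remained above the 40.2 CPM of replicate 2. IFIT3 in irradiated WT replicate 1 went from 451 to 167 CPM and IFIT2 from 303 to 81.9 CPM, with 54.4 and 28.0 CPM in replicate 2.

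The order of the genotypes was also compared without high cells. Without the 5 cells all KD libraries lay below all WT libraries in 10 members, against 7.02% of all genes, HERC5 being the 1 that was lost. When the 2 cells with the highest member share were left out of every library, an alternative added after seeing the data, 14 members were lower in KD over both treatments (15.8% of all genes called in that fit) and 8 without irradiation (9.08%), and after it 7 were called, 1 of them higher (4.75%). This run left in place the high cell of untreated WT replicate 1 in which HERC5 led. HERC5 in that library was at 70.1 CPM in this run and at 23.8 CPM without the 5 cells. Over both treatments the calls lost in this run were IFIH1 (adjusted p = 0.554), DDX58 (0.184), IFIT3 (0.104), BST2 (0.0788) and IFI6 (0.0777). Between irradiated genotypes they were IFIH1 (0.445), ISG20 (0.0842), IFIT3 (0.0808) and OAS1 (0.0712). Between untreated genotypes they were IFI6 (0.0786), SAMD9 (0.0736) and ISG20 (0.0507).

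Shares of cells with a count gave the same order. After thinning every cell to 69000 counts, which 330 cells reached, 13 of the 42 members had a lower share of cells in all 4 KD libraries than in any WT library, a pattern of 6.56% of all genes tested, and none had a higher one. IFIT1 was counted in 52.2% to 90.7% of WT cells and in 11.6% to 39.4% of KD cells (72.9% to 93.8% and 20.9% to 43.2% without thinning). RARRES3 was counted in 91.3% to 97.4% of WT cells and 67.5% to 79.1% of KD cells (93.8% to 100% and 73.2% to 88.4% without thinning). SAMD9 was counted in 37.0% to 56.4% and 15.0% to 20.0%, and GBP4 in 17.4% to 41.9% and 2.33% to 9.09%. The median over members was 33.7% to 45.3% in WT and 23.3% to 28.8% in KD. In OASL the thinned share was 8.70% to 51.3% in WT and 2.33% to 7.50% in KD. Without thinning OASL had a count in 33 and 30 of 48 cells in replicates 1 of untreated and irradiated WT and in 8 and 9 of 48 cells in replicates 2. Those are the libraries with the OASL-high cells, and the part of free RNA or of reads shared between cells was not tested.

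Genes upstream of the members showed few differences. Of 17 receptor and signalling genes, 16 were tested and none passed in any comparison. IFNGR1, a chain of the interferon gamma receptor, had a log2 difference of -1.07 (SE 0.260, adjusted p = 0.13) after irradiation of KD. IFNLR1, STAT3, JAK2, PTPN6 and SOCS1 were also among those with the smallest p of a comparison. Of the interferon production and nucleic acid sensing list, 20 genes were tested. RNASEH2B, a subunit of the nuclease that removes RNA from DNA, was higher in untreated KD by 1.04 (SE 0.233, adjusted p = 0.0104). Over both treatments it was higher in KD while the subunits RNASEH2A and RNASEH2C were lower, at -0.69 (SE 0.152, adjusted p = 0.00558) and -0.70 (SE 0.197, adjusted p = 0.0239). STING (TMEM173), the sensors AIM2 and IFI16, TRIM25 and SAMHD1, which had small p in some comparisons, passed in none. The interferon genes of that list were listed for none of the 8 libraries and so were not tested.

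Of 39 further interferon-induced genes, 4 were lower and 2 higher in KD over both treatments, with a median of -0.14. With 16.2% of all genes called in that comparison, 8.49% lower and 7.67% higher, these counts were near the background. The lower ones were LGALS3BP, TRIM5, APOL1 and TRIM22, and the higher ones PARP12 and GBP3. TRIM22 was at -2.96 (SE 0.925, adjusted p = 0.0401), APOL1 at -1.52 (SE 0.437, adjusted p = 0.0274) and GBP3 at 0.71 (SE 0.168, adjusted p = 0.00867). LGALS3BP, a secreted glycoprotein, was at 457 and 459.9, then 458 and 385 CPM in WT, and 279.9 and 318, then 346 and 358 CPM in KD. TRIM5, which restricts retroviral capsids, was at 23.3 and 20.7, then 17.7 and 16.98 CPM in WT, and 4.51 and 8.66, then 6.06 and 8.15 CPM in KD. PARP12 went the other way, at 27.04 and 30.99, then 18.9 and 25.4 CPM in WT, and 47.9 and 62.7, then 71.01 and 55.2 CPM in KD. Genotypes did not overlap in any of the 3. In WT, irradiation lowered the GTPase GBP2 and the ligase RNF213, at -1.68 (SE 0.262, adjusted p = 0.00699) and -1.12 (SE 0.214, adjusted p = 0.0207). GBP2 was at 151 and 123, then 30.7 and 53.7 CPM in WT, and 68.9 and 88.4, then 78.8 and 72.2 CPM in KD, lowest in the irradiated WT pair, and it was also lower in untreated KD than in untreated WT at -0.86 (SE 0.256, adjusted p = 0.0453). RNF213 was at 210.3 and 139, then 77.7 and 80.5 CPM in WT, and 122 and 115, then 73.2 and 80.9 CPM in KD. Irradiated libraries of RNF213 lay below untreated ones in both genotypes, and over both the difference was -0.87 (SE 0.151, adjusted p = 0.00906). APOL6, an apolipoprotein family member, had the smallest p of the list after irradiation of KD, at -1.83 (SE 0.407, adjusted p = 0.1).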

How the data were processed

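The authors deposited whole-number counts per gene and cell. Reads were processed with Trimmomatic 0.36, HISAT2 2.1.0 and HTSeq 0.9.1 on hg38, per the submitters' processing notes. Whether counts are reads or molecules, and strand use, is not given in the sources used here. Cells with at least 1000 genes and 5000 counts were kept and summed per library, so large cells weigh most. Low genes were removed by filterByExpr, TMM factors applied, and the 4 groups fitted together by edgeR 4.0.16's quasi-likelihood test (biological coefficient of variation 0.458, 4 residual degrees of freedom). Tested on simulated data for irradiation in WT, the script recovered 59% of 2-fold and 100% of 4-fold changes with 7 false calls. The changed genes had an average log2 CPM of at least 5, as 17 of the 40 tested members do, so recovery was not tested for the others. Counts were drawn with the spread typical of each level, so recovery was also not tested for members whose replicates differ more. Alternatives used DESeq2 1.42.0 and limma 3.58.1. Positions came from GENCODE 29.

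The members and lists were chosen with earlier results of these data known. Values in every library were given for members past the threshold, the 3 with the smallest p per contrast, a fixed set, and members with over 50% of a library's counts (100 or more) in 1 cell. Promoters were printed for some of the members past the threshold. Of the interferon lists, genes past the threshold and the 2 with the smallest p per contrast were named, and of the marker lists those past the threshold. One listed gene is not reported here.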

Additional observations from a re-analysis of the deposited data

How the results depend on the processing

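Directions were kept under every alternative run for the 42 called pairs of member and comparison, and 15 of the 42 stayed past the threshold in all of them. In parentheses is the share of all genes called in the same fit. With each library left out in turn, the members called ranged from 13 to 21 between genotypes over both treatments (11.5% to 15.9%), 6 to 12 without irradiation (7.34% to 10.5%) and 3 to 16 after it (2.33% to 7.46%). For irradiation they ranged from 0 to 3 in WT (0.678% to 2.84%), 0 to 4 in KD (0.332% to 1.08%), 0 to 5 over both genotypes (1.04% to 2.85%) and 0 to 3 for the difference of responses (0.234% to 0.973%). The low values of 6 and 3 came without untreated and irradiated WT replicate 1. With no filter on low counts the calls were 16 between irradiated genotypes (6.95%), 4 for irradiation in WT (3.55%), 5 in KD (1.57%), 2 over both genotypes (3.86%) and 6 for the difference of responses (1.3%). DESeq2's Wald test gave 3 in WT (4.57%), 2 over both genotypes (4.4%) and 2 for the difference of responses (1.08%). The limma fit on mean CPM per cell gave 7 between untreated genotypes (12.1%), 1 for irradiation in WT (1.58%), 0 in KD (0.979%) and 3 over both genotypes (2.96%). In WT, irradiation called 1 member with no scaling (1.57%), 3 among genes of average log2 CPM of at least 5 (6.4%) and 2 with the top cell of each gene set to the median (2.76%). It called 1 without the 1 or the 2 cells with the highest member share (1.49% and 1.31%), settings added after seeing the data. In KD it called 3 with thinned cells (0.895%), 3 with only the groups compared (0.56%), 2 without cells above 2 times the median (0.573%) and 2 with the top cell set to the median (0.589%). Over both genotypes it called 3 with thinned cells (3.25%) and 2 without cells above 2 times the median (2.26%). No paired analysis was possible because the labels give the libraries no shared replicate numbers.

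The smallest number of cells that held 50% of member counts was 11, 15, 9 and 14 in the WT libraries and 10, 13, 16 and 15 in the KD libraries after thinning, and 17 in irradiated KD replicate 1 after thinning and without IFITM3. Without thinning it was 8, 13, 5 and 10 in WT and 8, 9, 10 and 9 in KD, and for the counts of all genes 11, 14, 12 and 12 in WT and 9, 11, 12 and 10 in KD. The median share of cells with a count, without thinning, was 68.8%, 62.5%, 47.9% and 53.1% in WT and 35.4%, 34.1%, 34.9% and 34.9% in KD. Each group had 2 libraries, the lowest depth was 9321268 counts, in irradiated WT replicate 1, and a floor of 3 counts was set for every library.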
